A study of Mus musculus with 21 samples.

Results

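Complex I, the NADH dehydrogenase of the mitochondrial respiratory chain, was followed here through every nuclear gene whose symbol starts with Nduf. The name alone chose the genes, and 45 of the 16318 genes in the deposited table met it. Of these, 38 had subunit symbols (Ndufa, Ndufb, Ndufc, Ndufs and Ndufv) and 7 had the assembly factor symbol Ndufaf. The RNA came from brains of SAMP8 mice, an inbred senescence-accelerated strain, that were taken after perfusion with cold PBS. Starting at 4 months of age, 9 mice (3 females, 6 males) were injected subcutaneously on alternate days over 8 weeks with 1 mg/kg of HsTX1[R14A], a peptide that blocks Kv1.3 potassium channels, and 12 mice (6 females, 6 males) received the vehicle, phosphate-buffered saline (PBS). Both groups were SAMP8 and were 6 months old at the end, so neither is a normal-aging control, and no other strain enters the comparisons. Sample titles spell the peptide HxTX1[R14A]. Each mouse gave 1 library of between 14917174 and 47613792 counts, and each of the 45 genes had reads in each library. All markers of neurons, astrocytes, oligodendrocytes and microglia that were looked up were detected.

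Complex I takes electrons from NADH, passes them along a flavin and a chain of iron-sulfur clusters to ubiquinone, and pumps protons across the inner mitochondrial membrane. It is L-shaped: a matrix arm holds the NADH-oxidizing N module and the ubiquinone-reducing Q module, and a membrane arm holds the pumping modules, whose central subunits are encoded by mitochondrial DNA. Nuclear genes encode the core subunits of the matrix arm and all of the accessory subunits around the core, while assembly factors help to build the complex and are absent from the finished enzyme. Neurons depend heavily on it for ATP, and loss of single subunits causes encephalopathies such as Leigh syndrome.

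To ask whether the peptide changed complex I transcripts, HsTX1[R14A] was compared with PBS in a model with sex as a covariate, fitted across 16285 genes with edgeR's quasi-likelihood test and Benjamini-Hochberg adjustment, and a gene was called at an adjusted p of at most 0.05. Transcripts of 29 of the 45 genes were lower in HsTX1[R14A]-treated brains and 0 were higher. The background was wide: 31.6% of all tested genes were called, 16.1% lower and 15.5% higher. Among subunits, 26 of 38 (68.4%) fell, with a median log2 fold change of -0.47 over the 38 genes, and among assembly factors 3 of 7 (42.9%) fell, with a median of -0.30. The median over all tested genes was -0.01. Whether the 2 classes differed from each other was not tested. The sign was negative for 44 of the 45 genes, and values ran from -0.71 for Ndufb9 to 0.03 for Ndufv1. For no gene were the groups separate: the 9 treated mice always overlapped with the 12 PBS mice. The same count over all tested genes is not given here, so this overlap is not read as a trait of the family. These are whole-brain RNA measurements, in which fewer cells of a type and less RNA per cell cannot be told apart.

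**Figure D1:**
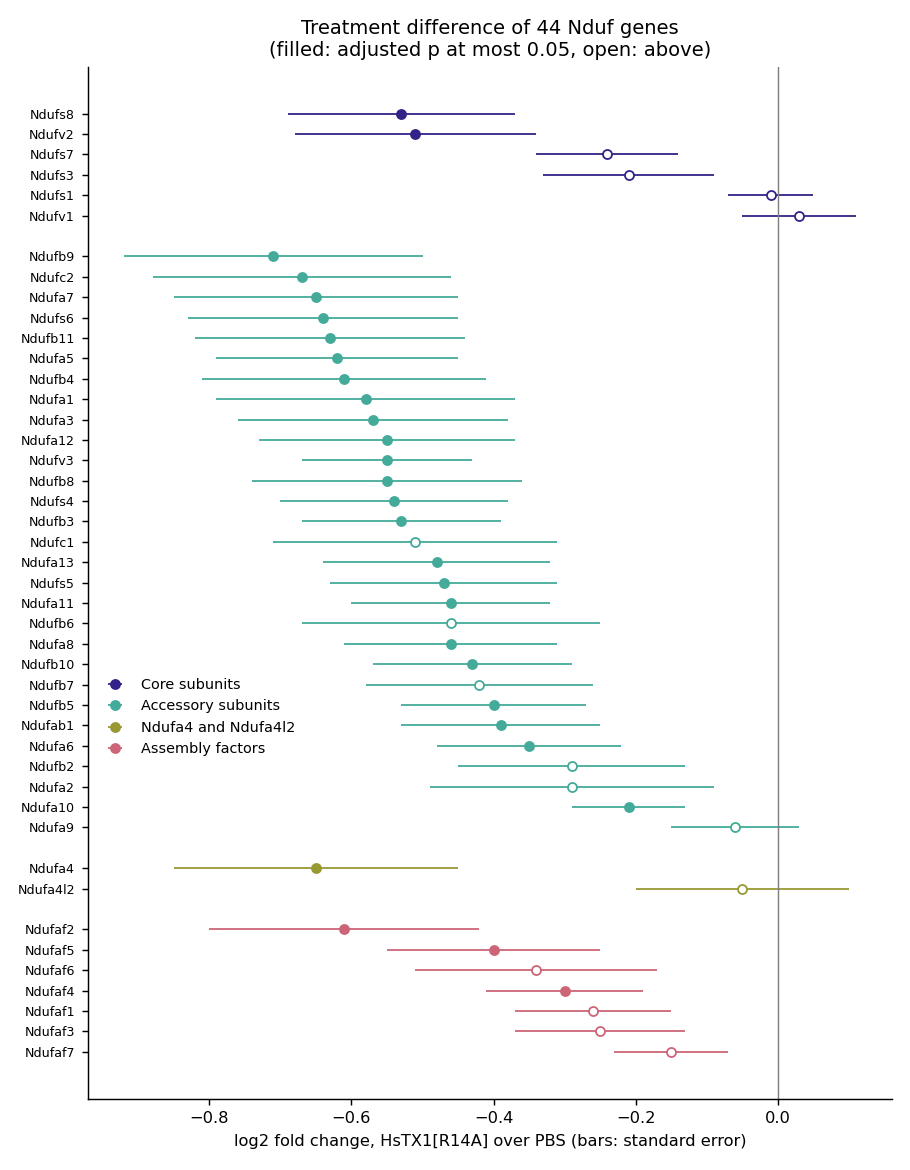
Treatment difference (log2 fold change, HsTX1[R14A] relative to PBS) with its standard error for 44 Nduf genes, grouped by role, with filled points for genes called at an adjusted p of at most 0.05. All points but Ndufv1 (0.03) lie below 0, and the core subunits spread from -0.53 (Ndufs8) to 0.03.

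Those calls depended on how differences between libraries were treated. With the length slope of each library (described further on) as a covariate, edgeR called 0 subunits and 0 assembly factors, with 4 and 1 at an unadjusted p under 0.05 and median log2 fold changes of 0.03 and 0.05, and it likewise called 0 of all 16285 genes, with 1866 at an unadjusted p under 0.05. That slope was computed from the same counts and differed between the groups. This fit could therefore also remove a treatment difference, and it cannot tell treatment and slope apart. Leaving out the single PBS mouse 90 left 4 subunits and 0 assembly factors called, beside 6.33% of all genes called lower.

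By symbol, 12 of 15 Ndufa genes, 7 of 10 Ndufb genes, 1 of 2 Ndufc genes, 4 of 8 Ndufs genes and 2 of 3 Ndufv genes were lower. By position in the enzyme, 7 of 10 genes of the N module fell (median log2 fold change -0.53), as did 2 of 6 of the Q module (-0.23), 8 of 9 of the proximal membrane arm (-0.48) and 8 of 11 of the distal membrane arm (-0.46). The 7 core subunits and the accessory subunits around them parted in their counts: 2 of 7 core genes (28.6%, median -0.21) and 23 of 29 accessory genes (79.3%, median -0.51) were lower, the latter without Ndufa4 and Ndufa4l2. The difference between these counts was not tested. Core genes had longer transcripts, with a median of 1661 bases against 918 bases for accessory genes. When length slopes entered the model, the median log2 fold change was 0.05 over core genes and 0.03 over all subunits. With a length and GC trend removed instead, these medians were -0.03 and -0.17. The medians over all subunits include the core genes, Ndufa4 and Ndufa4l2. No median of accessory genes alone was taken in these fits. The part of transcript length in the contrast of core and accessory genes was not tested.

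The core subunits carry the flavin and the iron-sulfur clusters. Levels are given as the lowest, median and highest CPM (counts per 1000000 counts of a TMM-scaled library). Ndufs8, which holds a pair of clusters, had 37, 59.1 and 101 CPM in PBS mice and 31.7, 42.7 and 63.4 CPM in treated mice. It was lower by a log2 fold change of -0.53 ± 0.16 (SE, adjusted p = 0.0242), and 8 of the 9 treated mice lay under the PBS median. Ndufv2, the small partner of the flavin subunit, had 128, 196 and 374 CPM in PBS mice and 117, 142 and 227 CPM in treated mice. Its log2 fold change was -0.51 ± 0.17 (SE, adjusted p = 0.0294), again with 8 of 9 treated mice under the PBS median.

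The genes of the largest core proteins had the values nearest to 0. Ndufv1, the subunit that binds NADH and the flavin, had 78.1, 92.7 and 104 CPM in PBS mice and 69.9, 94.3 and 111 CPM in treated mice, with a log2 fold change of 0.03 ± 0.08 (SE, adjusted p = 0.811). Ndufs1, the N module subunit with the most clusters, had 101, 108 and 120.3 CPM in PBS mice and 92, 107 and 124 CPM in treated mice (log2 fold change -0.01 ± 0.06, SE, adjusted p = 0.938). For both genes the highest treated mouse, 92, was above all PBS mice. Of the Q module, Ndufs3 gave -0.21 ± 0.12 (SE, adjusted p = 0.189) and Ndufs7, which carries the last cluster, gave -0.24 ± 0.10 (SE, adjusted p = 0.0678). Ndufs1 was also the steadiest of these genes, with PBS mice at 109 ± 6.55 CPM (SD, n = 12) and treated mice at 109 ± 9.37 CPM (SD, n = 9).

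Ndufb9, an accessory subunit of the distal membrane arm with the LYR motif (chr15:58933756-58939488 in GRCm38), had the most negative value of the family. It had 124, 204 and 397 CPM in PBS mice and 103, 130.4 and 240.0 CPM in treated mice, a log2 fold change of -0.71 ± 0.21 (SE, adjusted p = 0.0213), or 38.7% less. Of the 12 PBS mice, 4 were above every treated mouse, and of the 9 treated mice, 4 were below every PBS mouse. Ndufc2, in the proximal membrane arm (chr7:97400003-97407802), had 50.9, 78.4 and 173 CPM in PBS mice and 41.5, 54.9 and 91.1 CPM in treated mice (-0.67 ± 0.21, SE, adjusted p = 0.0253).

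With Ndufa4 (-0.65) set aside, a pair of N module accessory genes came next. Ndufa7 (chr17:33824572-33838317) had 45.2, 72.5 and 144 CPM in PBS mice and 37, 48.9 and 83.4 CPM in treated mice (log2 fold change -0.65 ± 0.20, SE, adjusted p = 0.0237). Ndufs6, the zinc-binding subunit that joins late in assembly (chr13:73319838-73328542), had 44, 59.7 and 119 CPM in PBS mice and 33.5, 42.6 and 70.5 CPM in treated mice (-0.64 ± 0.19, SE, adjusted p = 0.0216). For Ndufs6, 6 of 9 treated mice were below the lowest PBS mouse, yet 4 PBS mice stood above all treated ones, so both tails of the groups were involved. Ndufv3, another N module accessory subunit, which was singled out after its value was seen, had the smallest adjusted p of the family (0.015, log2 fold change -0.55 ± 0.12, SE) and was the one gene with all 9 treated mice under the PBS median.

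At the other end of the accessory subunits, Ndufa9, a Q module subunit at the joint with the membrane arm, had 54.6, 66.2 and 84.8 CPM in PBS mice and 45.9, 62.2 and 83.5 CPM in treated mice, with a log2 fold change of -0.06 ± 0.09 (SE, adjusted p = 0.658). Ndufa10, which resembles nucleoside kinases, had 132, 159.5 and 203 CPM in PBS mice and 125, 139 and 179 CPM in treated mice, and its small difference was called (-0.21 ± 0.08, SE, adjusted p = 0.0466). Ndufa2 (-0.29 ± 0.20, SE, adjusted p = 0.259) and Ndufb2 (-0.29 ± 0.16, SE, adjusted p = 0.151) were not called.

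Ndufa1 and Ndufb11 are the X-linked members. Ndufa1, an early membrane arm subunit (X:37187588-37191163), had 35.7, 59 and 117 CPM in PBS mice and 26.3, 41.1 and 67.3 CPM in treated mice (log2 fold change -0.58 ± 0.21, SE, adjusted p = 0.0427). Ndufb11 of the distal arm (X:20615326-20617619) had 91, 130.2 and 265 CPM in PBS mice and 72, 97.2 and 159.6 CPM in treated mice (-0.63 ± 0.19, SE, adjusted p = 0.0221). Both lay within the range of the autosomal accessory subunits.

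Ndufa4 bears a complex I name but its protein is a subunit of cytochrome c oxidase (complex IV). It had 163, 247 and 462 CPM in PBS mice and 109.5, 174 and 290.0 CPM in treated mice, and fell with the true subunits (log2 fold change -0.65 ± 0.20, SE, adjusted p = 0.0254). Its paralog Ndufa4l2, a hypoxia-induced gene that is expressed in mural cells of brain vessels, was the lowest transcript of the family. Its values were 0.852, 1.31 and 1.89 CPM in PBS mice and 1.02, 1.34 and 1.82 CPM in treated mice, from as few as 12 counts in a library, with a log2 fold change of -0.05 ± 0.15 (SE, adjusted p = 0.83).

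Among the 7 genes with an Ndufaf symbol, Ndufaf2 (chr13:108002715-108158623) had the largest difference. It is a paralog of Ndufa12 that holds the place of the N module in a late intermediate. It had 11, 17.1 and 33.6 CPM in PBS mice and 10.3, 12.5 and 20.4 CPM in treated mice (log2 fold change -0.61 ± 0.19, SE, adjusted p = 0.0259), with 8 of 9 treated mice under the PBS median. Ndufaf5, which hydroxylates an arginine of Ndufs7, had 29.9, 37.8 and 67.7 CPM in PBS mice and 24.5, 29.5 and 45.6 CPM in treated mice (-0.40 ± 0.15, SE, adjusted p = 0.0457). Ndufaf4, a partner of Ndufaf3 on the Q module intermediate, had 35.2, 42.6 and 63.6 CPM in PBS mice and 29.9, 37.3 and 47.5 CPM in treated mice (-0.30 ± 0.11, SE, adjusted p = 0.039).

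The other 4 assembly factors were not called. Ndufaf3 gave a log2 fold change of -0.25 ± 0.12 (SE, adjusted p = 0.0961), so it and its partner Ndufaf4 lay within 1 SE of each other. Ndufaf1, of the complex that assembles the membrane arm with Acad9 and Ecsit, gave -0.26 ± 0.11 (SE, adjusted p = 0.0755). Ndufaf6, needed for early membrane arm assembly, gave -0.34 ± 0.17 (SE, adjusted p = 0.115), and Ndufaf7, an arginine methyltransferase, gave -0.15 ± 0.08 (SE, adjusted p = 0.114). Ndufaf7 had 20.6, 22.2 and 28.2 CPM in PBS mice and 16.4, 20.4 and 25.3 CPM in treated mice, and 6 of the 9 treated mice were nevertheless below the lowest PBS mouse.

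**Figure D2:**
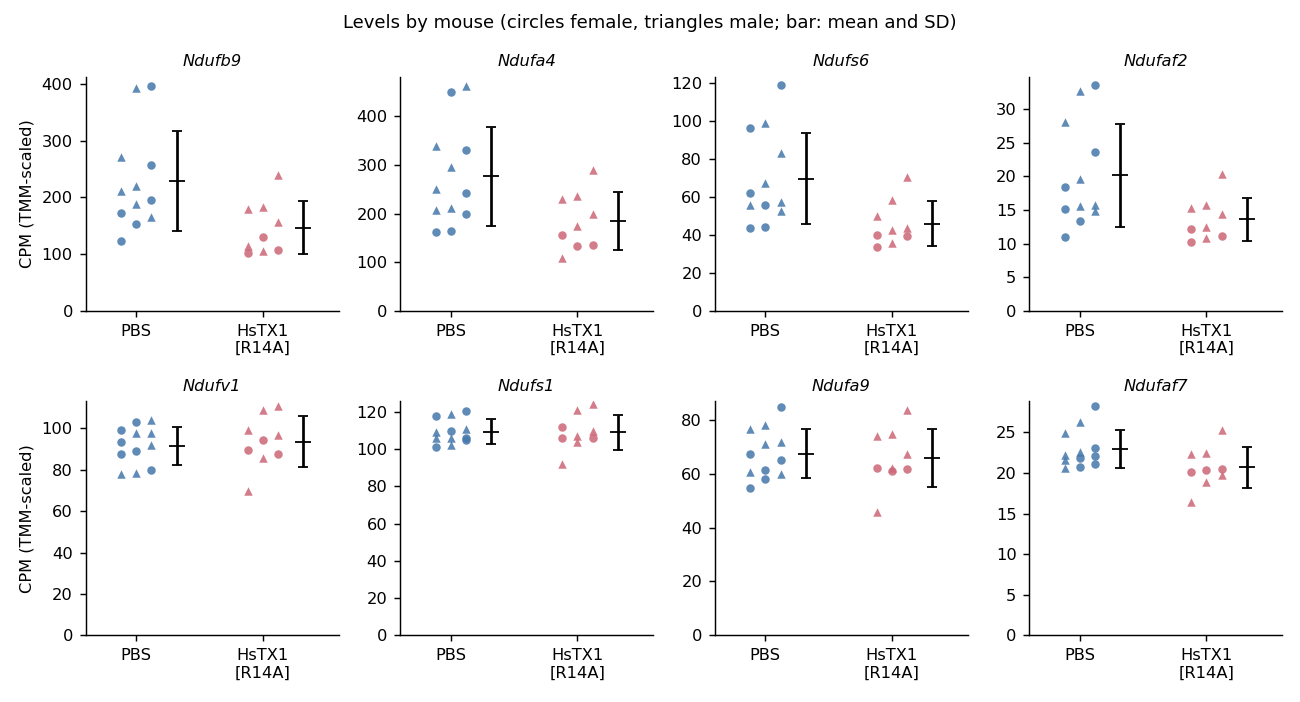
TMM-scaled CPM of 8 Nduf genes in each mouse (circles female, triangles male, bars mean and SD, n = 12 PBS and n = 9 HsTX1[R14A], axes from 0). In the upper row (Ndufb9, Ndufa4, Ndufs6, Ndufaf2) a few PBS mice reach far above the rest, and in the lower row (Ndufv1, Ndufs1, Ndufa9, Ndufaf7) the 2 group means lie closer together, with 6 of 9 treated mice below the lowest PBS mouse for Ndufaf7.

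Some of these loci overlap other genes in the GENCODE annotation of GRCm38. All 8379 bases of Ndufa13 lie within Yjefn3 on the same strand, and Ndufb9 (3604 bases with Gm49356), Ndufb8 (4260 bases with Gm20538) and Ndufb2 (4022 bases with Gm42420) share sequence with other annotated genes on their own strand, so their estimated counts are uncertain. The labels and the methods name different library kits, and whether strand was used in counting is not given in the sources used here. The longest overlaps with genes on the opposite strand were those of Ndufs1 (14695 bases with Ino80dos), Ndufaf2 (4727 with Smim15), Ndufab1 (2829 with Gm44986) and Ndufa9 (2801 with 1700018A23Rik). Without use of strand, reads from shared sequence could not be told apart. Overlaps were taken between whole gene spans, and overlap of exons was not checked.

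The family moved as a block from mouse to mouse. Each gene was expressed as log2 CPM centered on its mean over the 21 mice, and the median over genes was taken in each mouse. Over the 38 subunits this median ran from -0.38 to 0.91 in PBS mice (0.17 ± 0.39, SD, n = 12) and from -0.57 to 0.34 in treated mice (-0.22 ± 0.31, SD, n = 9), so the groups overlapped. Over the 7 assembly factors it ran from -0.29 to 0.60 in PBS mice (0.09 ± 0.28, SD, n = 12) and from -0.41 to 0.32 in treated mice (-0.15 ± 0.26, SD, n = 9). PBS mice 103 and 90 had the highest subunit medians, 0.91 and 0.80, and in each of them 44 of the 45 genes were above their own mean. Treated mouse 93 had all 45 genes above their mean and a subunit median of 0.34, whereas treated mice 72 and 88 had 0 genes above it. The share of all counts taken by the 45 genes was 0.306% to 0.641% in PBS mice and 0.243% to 0.467% in treated mice.

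The same mice differed in how counts were distributed over transcript lengths. For each library, the centered log2 CPM of all genes was regressed on log2 length of the longest annotated transcript, and the coefficient is called the length slope. A negative slope means relatively more counts on short transcripts. Slopes of PBS mice were -0.08 ± 0.16 (SD, n = 12) and those of treated mice 0.10 ± 0.12 (SD, n = 9). PBS mice 103 and 90, with the highest subunit medians, had the lowest slopes (-0.385 and -0.337), and treated mice 98, 81 and 71, with the lowest subunit medians (-0.50, -0.57 and -0.48), had the highest (0.236, 0.200 and 0.185). PBS mouse 84, with the lowest subunit median of its group (-0.38), had the highest slope of its group (0.147). With mice 103 and 90 both left out, 10 subunits (median log2 fold change -0.32) and 0 assembly factors (-0.17) were called, beside 7.4% of all genes called lower, and 3 assembly factors had an unadjusted p under 0.05. The part of RNA integrity or library preparation in these values was not tested. Slopes and subunit medians come from the same log2 CPM values, so they are not independent of each other.

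**Figure D3:**
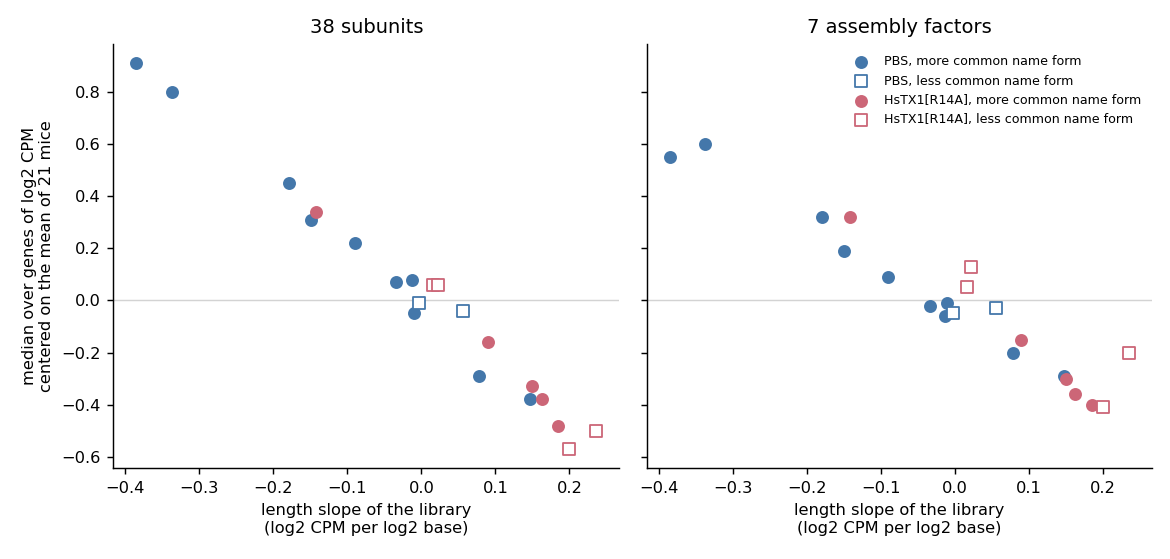
Median centered log2 CPM of the 38 subunits (left) and 7 assembly factors (right) in each mouse against the length slope of its library, with filled circles for the 15 libraries of the more common form of column name and open squares for the 6 of the other. Both medians decline from the PBS mice with the lowest slopes to the treated mice with the highest. The slope is computed from the same log2 CPM values, so it is not independent of these medians.

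The 21 libraries also carried different forms of name in the deposited table, with 10 PBS and 5 treated mice under one form and 2 PBS and 4 treated mice under the other. What the forms stand for is not given in the sources used here. With the form as a covariate, 3 subunits and 0 assembly factors were called, at medians (-0.43 and -0.31) near those without it and beside 6.36% of all genes called lower, and 28 and 4 genes passed an unadjusted p of 0.05. With 1 surrogate variable the counts were 16 and 0 (2 assembly factors at an unadjusted p under 0.05), beside 6.66% of all genes. When the sex term was dropped they were 12 and 1, beside 9.56%. In the 15 mice with the common form, edgeR called 0 of the 45 genes and 0 of all 16296 tested, with 21 subunits and 4 assembly factors at an unadjusted p under 0.05 and medians of -0.50 and -0.35. Within the other 6 mice, 0 of the 45 genes and 0 of all 15910 tested were called, and 0 of the 45 had an unadjusted p under 0.05, with medians of -0.28 and -0.16.

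Nduf transcripts are short. The median longest transcript was 1026 bases for subunits and 1487 bases for assembly factors, beside 3286 bases for all tested genes. Across the 45 genes, the log2 fold change increased with log2 transcript length (Pearson's r = 0.38, Spearman's rho = 0.43, n = 45 genes measured in the same libraries), and across 16206 tested genes it did likewise (r = 0.51, rho = 0.51). With the length of the principal transcript, the values for the family were r = 0.52 and rho = 0.54. With GC content of the transcript they were 0.16 and 0.13.

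The family was then set beside genes of like length. Among all genes with a longest transcript of at most 1000 bases, 40.4% were lower (median log2 fold change -0.46), and 14 of the 18 Nduf genes of that length were (median -0.55). Over 1000 and up to 2000 bases, 26.5% of all genes (median -0.21) and 8 of 16 Nduf genes (median -0.38) were lower. Over 2000 bases, 12% of all genes (median 0.06) and 7 of 11 Nduf genes (median -0.39) were lower. Among these, Ndufab1, Ndufaf4 and Ndufa10 also had principal transcripts over 2000 bases (3479, 3632 and 2020 bases). The principal transcripts of the others were shorter: Ndufb5 (1079 bases), Ndufb8 (680), Ndufaf2 (678) and Ndufv3 (1582). Of the Nduf genes of this length that were not called, Ndufs1 (2661 bases, log2 fold change -0.01) and Ndufb2 (4371 bases, -0.29) also had principal transcripts over 2000 bases. Those of Ndufaf7 (1749) and Ndufb7 (623) were shorter. After a trend on transcript length and GC content was removed from each library, 6 of 38 subunits (median -0.17) and 0 of 7 assembly factors (median -0.02, 1 at an unadjusted p under 0.05) were lower, beside 6.44% of all genes.

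**Figure D4:**
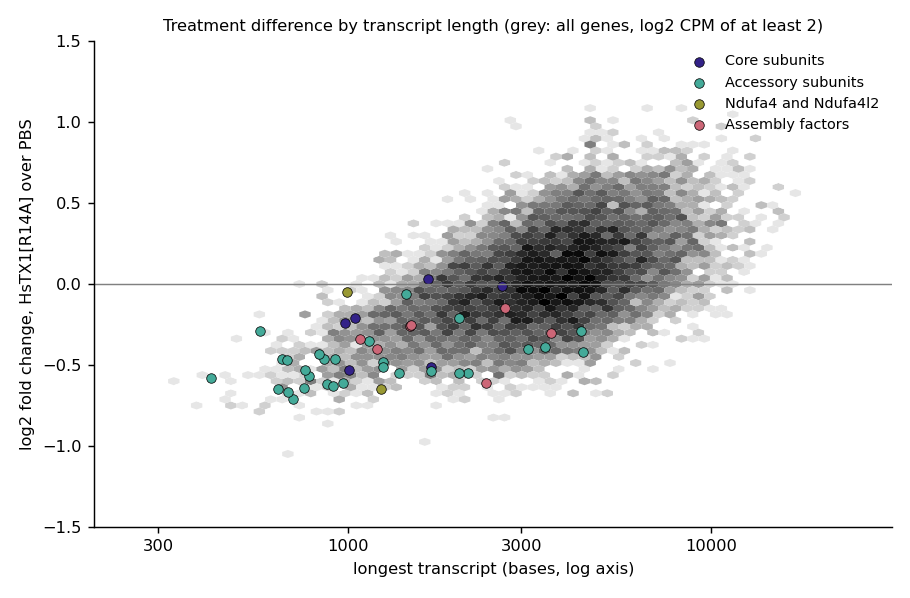
Treatment difference (log2 fold change) against the length of the longest transcript (log axis), with 44 Nduf genes in color over all other genes of log2 CPM 2 or more in grey (darker for more genes). The grey cloud rises with length, and most Nduf genes lie on its left side, at or under the middle of the cloud at their length.

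Subunits varied widely between control mice. The SD of log2 CPM over the 12 PBS mice had a median of 0.41 over subunits and 0.28 over assembly factors, beside 0.30 over all tested genes and 0.23 over the 8348 genes whose mean log2 CPM was 4 or more. Within the family it ran from 0.09 to 0.54.

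Females and males were compared in the same model. Of 16285 genes, 9 were called for sex (0.0553%), and 0 of them were Nduf genes by edgeR, and limma/voom and DESeq2 likewise called 0 Nduf genes. With sample quality weights 20 Nduf genes were called, beside 2584 of all genes. In the main model 44 of the 45 genes were lower in females, with a median log2 difference (female over male) of -0.22, and 3 had an unadjusted p under 0.05: Ndufs4, a late-joining N module subunit (-0.38 ± 0.15, SE, adjusted p = 0.446), Ndufb3 (-0.29 ± 0.14, SE, adjusted p = 0.446) and Ndufv3 (-0.26 ± 0.12, SE, adjusted p = 0.446). The X-linked Ndufa1 (-0.13 ± 0.21, SE, adjusted p = 0.731) and Ndufb11 (-0.25 ± 0.18, SE, adjusted p = 0.479) did not stand apart. The median over all tested genes was 0.01. Nduf genes moved together from mouse to mouse, so their signs are not independent. Mean length slopes were -0.04 in female and -0.11 in male PBS mice, and 0.19 and 0.06 in treated females and males. The part of these slopes in the sex difference was not tested.

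The treatment difference was then set side by side in the sexes, with 0 of 16285 genes called by edgeR within females alone (4535 at an unadjusted p under 0.05) and 0 within males alone (3916). The median log2 fold change over the 45 genes was -0.58 in females (3 treated and 6 PBS) and -0.35 in males (6 and 6), with 45 and 43 genes negative. The treatment by sex interaction called 0 of 16285 genes by edgeR, with 267 at an unadjusted p under 0.05, and 0 by limma/voom and DESeq2. The lowest interaction p within the family was 0.208, for Ndufa3 (-0.87 ± 0.30 in females and -0.37 ± 0.24 in males, SE). Ndufb9 had -0.92 ± 0.33 in females and -0.56 ± 0.26 in males (SE, interaction p = 0.393). The length slopes of the 3 treated females (0.16 to 0.24) lay above the median of the treated males (0.06).

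Levels of different genes were compared per length, as counts per base of the longest transcript scaled to a sum of 1000000 per library. In PBS mice, the median level was 158 over the 38 subunits (2.93 to 559), 23.4 over the 7 assembly factors (11.1 to 64.6) and 9.81 over all genes. Ndufb9 was the highest (559, range 456 to 899 over 12 mice), followed by Ndufa4 (399, range 285 to 582). Ndufa1 (303), Ndufb11 (301) and Ndufa3 (284) came next with overlapping ranges. With the length of the principal transcript the order was Ndufa4 (736), Ndufb8 (601, from 208 with the longest transcript), Ndufb9 (512) and Ndufa3 (395). Again with the longest transcript, the core subunits ran from Ndufv2 (231) to Ndufs8 (110.3), Ndufv1 (104) and Ndufs1 (77.4). Between them lay Ndufs3 (156) and Ndufs7 (154), which did not differ beyond their spread. Subunits of one complex thus differed by several fold in apparent level. Of the assembly factors, Ndufaf5 was the highest (64.6) and Ndufaf6 the lowest (11.1), while Ndufaf4 (24.5) and Ndufaf1 (23.4) had overlapping ranges. The low places of Ndufb2 (22) and Ndufb7 (34.2) among the subunits rest on longest transcripts of 4371 and 4435 bases. For Ndufb7 the principal transcript has 623 bases.

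**Figure D5:**
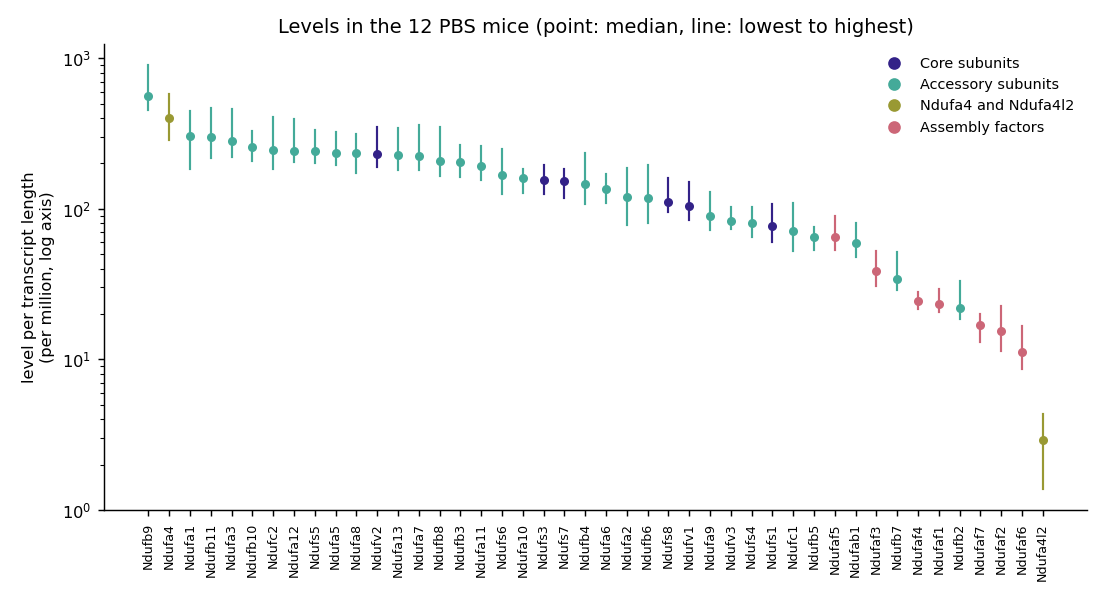
Level per transcript length in the 12 PBS mice (log axis, counts per base of the longest transcript scaled to a sum of 1000000 per library), as the median and the lowest-to-highest range for each of 44 genes. Most subunits lie between 59.4 (Ndufab1) and 559 (Ndufb9), and the assembly factors lie lower, between 11.1 (Ndufaf6) and 64.6 (Ndufaf5).

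The direction of the treatment difference depended on this choice of scale for some genes. On the per-length scale the median over all tested genes was higher in treated than in PBS mice by 0.30 (log2 ratio of group medians). The median over subunits was -0.03, which is -0.33 relative to all genes, with 35 of 38 below the median of all genes. The median over assembly factors was 0.08, or -0.22 relative to all genes, with 7 of 7 below it, and over core subunits it was 0.21, or -0.10 relative to all genes, with 5 of 7 below. The 5 genes with the highest levels per length, mt-Co1, mt-Cytb, Gm28661, Gm28437 and Gm10925, took 15.2% to 24.4% of this scale in PBS mice and 13.6% to 20.2% in treated mice.

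The promoters of the family were also searched for short motifs of factors known to act at respiratory genes. RefSeq promoters (GRCm38.p6, 250 bases before to 50 bases after the start) were matched for 39 of the 45 genes, and both strands were read. The NRF1 motif (GCGCA, any base, then GCGC) was found in 9 of 39 genes (23.1%), beside 4.6% of all 32851 promoters and 8.76% of the 14743 promoters of tested genes. These 9 were all among the 28 matched genes that were called lower, and 0 of the 11 others had it. The YY1 motif AAGATGGC was found in 7 of 39 genes (17.9%), beside 2.75% of all promoters and 3.78% of those of tested genes, in 4 of 28 called and 3 of 11 other genes. It starts between 23 and 39 bases after the start in each. The ETS motif CCGGAAG was found in 5 of 39 genes (12.8%, beside 14.9% of promoters of tested genes), and TATAAA in 4 (10.3%, beside 7.41%). A match is a run of letters and not a binding site, and no binding was measured here. Whether motif counts differed between called and other genes was not tested. A link of the motifs to the treatment difference or to the shared movement of the family was not tested either.

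The NRF1 matches are shown, with the match in capitals in 30 bases of the strand of the gene, because they are the most frequent of the 4 motifs in the family and vary at the free position. Coordinates are of GRCm38.p6.
Ndufa11 (chr17:56717692-56717721, plus strand): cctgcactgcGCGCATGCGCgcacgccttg
Ndufa5 (chr6:24527697-24527726, minus strand): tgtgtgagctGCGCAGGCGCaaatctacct
Ndufa6 (chr15:82354249-82354278, minus strand): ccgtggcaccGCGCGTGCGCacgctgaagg
Ndufa8 (chr2:36049349-36049378, minus strand): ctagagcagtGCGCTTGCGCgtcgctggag
Ndufaf4 (chr4:24897960-24897989, plus strand): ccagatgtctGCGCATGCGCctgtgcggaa
Ndufaf5 (chr2:140170652-140170681, plus strand): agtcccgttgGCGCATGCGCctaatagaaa
Ndufb4 (chr16:37654371-37654400, minus strand): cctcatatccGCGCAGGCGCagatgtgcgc
Ndufb4 (chr16:37654428-37654457, minus strand): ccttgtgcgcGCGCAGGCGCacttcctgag
Ndufb4 (chr16:37654540-37654569, minus strand): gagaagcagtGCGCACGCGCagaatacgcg
Ndufs5 (chr4:123718265-123718294, minus strand): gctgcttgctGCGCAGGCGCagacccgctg
Ndufs6 (chr13:73328479-73328508, minus strand): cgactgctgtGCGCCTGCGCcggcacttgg

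Among the NRF1 matches, those of Ndufa6 and Ndufaf5 lie 24 and 17 bases after the start and the others before it. The match of Ndufa5 lies in a pair of overlapping promoters of that gene, at -190 and -26 from their starts, and is shown once. Ndufb4 holds 3 matches. The YY1 matches are shown because all of them lie within the 50 bases after the start, and Ndufs6 is the one gene with both motifs.
Ndufa3 (chr7:3617384-3617413, plus strand): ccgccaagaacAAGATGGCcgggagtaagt
Ndufa9 (chr6:126849097-126849126, minus strand): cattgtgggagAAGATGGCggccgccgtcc
Ndufb8 (chr19:44555393-44555422, minus strand): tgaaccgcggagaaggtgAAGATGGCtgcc
Ndufc1 (chr3:51408915-51408944, minus strand): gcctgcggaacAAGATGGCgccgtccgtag
Ndufs4 (chr13:114388045-114388074, minus strand): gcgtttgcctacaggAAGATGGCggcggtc
Ndufs6 (chr13:73328433-73328462, minus strand): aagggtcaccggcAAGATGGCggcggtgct
Ndufs7 (chr10:80249462-80249491, plus strand): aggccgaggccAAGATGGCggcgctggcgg

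The genes that work with the family were counted from lists. Of 12 further complex I assembly factors, 3 were lower and 0 higher, with a median log2 fold change of -0.16. The smallest p-values were those of a paralog pair of membrane arm assembly genes, Tmem126a (14.8, 19.4 and 41.2 CPM in PBS mice, 11.4, 12.4 and 22.4 CPM in treated mice, log2 fold change -0.65 ± 0.19, SE, adjusted p = 0.0208) and Tmem126b (-0.27 ± 0.09, SE, adjusted p = 0.027). The assembly factors with and without an Ndufaf symbol thus fell in 3 of 7 and 3 of 12 cases.

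Mitochondrial DNA encodes the other core subunits of the membrane arm, and 6 of these 7 genes were lower (median log2 fold change -0.58, beside -0.47 for the nuclear subunits). Mt-Nd1 had 7042, 11706 and 16705 CPM in PBS mice and 6072, 7613 and 12230 CPM in treated mice (mt-Nd1, -0.58 ± 0.16, SE, adjusted p = 0.0193). The gene mt-Nd6, on the other strand of the circle, had 37, 118 and 396 CPM in PBS mice and 18.7, 32 and 134 CPM in treated mice (-1.65 ± 0.43, SE, adjusted p = 0.0177). Reads of these genes can be shared with near-identical copies in the nuclear genome, so their values are uncertain. In some mice they parted from the nuclear family: treated mouse 81 had the lowest nuclear subunit median (-0.57) and the highest mitochondrial one of its group (0.34).

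Other respiratory complexes were counted in the same way. In complex II, which feeds ubiquinone from succinate, 3 of 8 listed genes were lower (median log2 fold change -0.40), among them the assembly factor Sdhaf2 (-0.40 ± 0.12, SE, adjusted p = 0.0215) and the membrane anchor Sdhc (-0.39 ± 0.13, SE, adjusted p = 0.0297). Of 34 nuclear subunits of complexes III, IV and V, 19 were lower and 0 higher (55.9%, median -0.46), led by Uqcrb of complex III (-0.55 ± 0.13, SE, adjusted p = 0.0152) and Cox7c of complex IV (-0.75 ± 0.19, SE, adjusted p = 0.0171). Their median by mouse differed from that of the complex I subunits by at most 0.06 in any mouse (for example 0.87 and 0.91 in PBS mouse 103, and -0.63 and -0.57 in treated mouse 81). No test compared the Nduf subunits with these genes.

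Of 11 transcriptional regulators of respiratory genes, 2 were lower and 2 higher (median log2 fold change 0.07), beside 16.1% and 15.5% of all tested genes. The higher ones were Pprc1 (3.91, 10.3 and 17 CPM in PBS mice, 5.97, 18.3 and 21.9 CPM in treated mice, 0.79 ± 0.22, SE, adjusted p = 0.0199) and Ppargc1b (0.72 ± 0.21, SE, adjusted p = 0.0215). Both belong to the PGC-1 coactivator family, but Ppargc1a, of the same family and also listed, was not called higher. The list has a median transcript length of 4167 bases, against 1026 bases for the subunits.

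Cell type markers were measured in the same libraries. Neuron markers, summed, ran from 5383 to 8498 CPM in PBS mice and from 6817 to 9897 CPM in treated mice, with 0 of 7 lower and 2 higher. Astrocyte markers ran from 1842 to 3858 and from 2237 to 3956 CPM (2 of 5 lower), oligodendrocyte markers from 3460 to 4965 and from 2502 to 3893 CPM (2 of 5 lower) and microglia markers from 229.9 to 311 and from 196 to 272 CPM (2 of 5 lower). Endothelial markers (46.6 to 84.6 and 55.3 to 96.3 CPM, 1 of 4 higher) and mural cell markers (142 to 171 and 139.7 to 164 CPM, 1 of 6 higher) also overlapped between groups, as did choroid plexus markers (66.8 to 1113 and 56.4 to 821 CPM) and erythrocyte genes (5.82 to 157 and 15.1 to 87.6 CPM), of which 0 of 4 and 0 of 5 were called. No marker was at 0 in all libraries. The part of cell composition in the values of the Nduf genes was not tested.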

How the data were processed

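Total RNA of 21 SAMP8 mouse brains was sequenced with 1 library per mouse. STAR (GRCm38) and Salmon served the authors for alignment and quantification, and the deposited values are estimated counts of 16318 genes without normalization. The filter behind that number is not given in the sources used here. The 53 other per-sample columns (37 of CPM and 16 of counts) and the authors' columns of fold changes, p-values and FDR were not used.

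Estimated counts were rounded (90.5% lay within 0.01 of a whole number). Totals were 14917174 to 47613792 counts, and each Nduf gene had at least 12 counts in every library, so spread between mice and not read sampling limits nearly all values. In edgeR (version 4.0.16, R 4.3.3), genes were filtered with filterByExpr (16285 kept), scaled by TMM and fitted with glmQLFit on sex and treatment. Treatment, sex and their interaction were tested, with Benjamini-Hochberg adjustment over all genes and calls at 0.05. Log2 CPM by mouse used a prior count of 2. Transcript lengths and gene positions came from the GENCODE annotation of GRCm38 and promoters from RefSeq. None of the 48 pairs of libraries of the same treatment and sex agreed within sampling noise. The fits were tested on simulated counts with 200 changed genes. Those counts were drawn gene by gene without length slopes, so they cannot show how the fits handle such library differences.

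Alternatives were limma/voom (limma 3.58.1), DESeq2 (1.42.0), RLE scaling, other low-count filters, sample quality weights, 1 surrogate variable (sva 3.50.0), the name form or the length slope as a covariate, removal of a length and GC trend (loess, span 0.5), no sex term, mice of 1 name form and leaving out each mouse. A further 2 were chosen after the data were seen: leaving out PBS mice 103 and 90 together, and the principal transcript in place of the longest. The Nduf genes and the lists were chosen with earlier results of these data known. Genes deposited under another symbol would be missed by both. Values are named for all Ndufaf genes, nuclear core subunits, Ndufa4, Ndufa4l2 and X-linked genes. Also named are the 4 most negative and the 4 largest fold changes among other subunits, and the 2 smallest p-values of each further list. The values of 1 gene are not reported here, though counts and medians over the family include it.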

Additional observations from a re-analysis of the deposited data

Results flagged for a closer look

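Ndufa10, the subunit that resembles nucleoside kinases, had 1 treated mouse far from the others. HsTX1[R14A] mouse 93 had 179 CPM and the other 8 treated mice had 125 to 149 CPM, and on the log2 CPM scale the gap to the nearest mouse was 0.51 of the range of the group, above Dixon's 95% critical value for 9 samples. The same mouse was above its mean for all 45 Nduf genes and had the lowest length slope of its group (-0.142). Chance marks about 1 in 20 groups in this way. Each of the 25 named Nduf genes has a PBS and a treated group, and 1 group was marked. These genes moved together from mouse to mouse, so their groups are not independent.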

How the results depend on the processing

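No paired analysis was possible because mouse numbers are unique to each mouse and shared by no groups. Main counts were 26 subunits, 3 assembly factors, 0 Nduf genes for sex and 0 for the interaction. Subunit and assembly factor counts stayed within 1.5 times under limma/voom, DESeq2, RLE scaling, both low-count filters and quality weights. They were 3 and 0 with the name form as covariate, 16 and 0 with 1 surrogate variable, 0 and 0 with the length slope as covariate, 6 and 0 with the length and GC trend removed, 12 and 1 with no sex term, 0 and 0 in the 15 mice of the common name form, 0 and 0 in the 6 others, and 10 and 0 without PBS mice 103 and 90. The fits on 15 and 6 mice used fewer samples, and for the others the cause was not tested. Over all genes, lower calls ranged from 0 to 3344 (without treated mouse 93), and were 1030 without PBS mouse 90. Leaving out 1 mouse gave 4 (without PBS mouse 90) to 29 subunits. Without PBS mouse 101 there were 17, and without treated mice 98, 71, 72, 88 and 81 there were 8, 11, 13, 12 and 13. Assembly factors ranged from 0 (without PBS mouse 90 or treated mouse 71) to 6 (without treated mouse 93), and were 1 without PBS mice 73 or 101 or treated mice 98, 72, 74, 88 or 81. Quality weights called 20 Nduf genes for sex, beside 2584 of all genes. The interaction stayed at 0. The median level per length of subunits was 196 with principal transcripts.

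Signs turned mainly where lengths were modeled, most values being near 0. With the length slope as covariate, log2 fold changes became 0.03 for Ndufv2, 0.05 for Ndufs1, 0.16 for Ndufs3, 0.05 for Ndufs7, 0.05 for Ndufaf1, 0.01 for Ndufaf2, 0.07 for Ndufaf3, 0.00 for Ndufaf4, 0.07 for Ndufaf5, 0.19 for Ndufaf6, 0.04 for Ndufaf7, 0.00 for Ndufa4, 0.08 for Ndufa1, 0.01 for Ndufc2, 0.00 for Ndufa7, 0.21 for Ndufb2, 0.29 for Ndufa2, 0.14 for Ndufa9 and 0.01 for Sdhc. With the length and GC trend removed, they were 0.15 for Ndufs1, 0.07 for Ndufs3, 0.03 for Ndufaf1, 0.01 for Ndufaf7, 0.10 for Ndufa4l2, 0.02 for Ndufa1, 0.18 for Ndufa2, 0.21 for Ndufa9 and 0.03 for Uqcrb. With 1 surrogate variable, they were 0.04 for Ndufs1, 0.01 for Ndufs3, 0.01 for Ndufb2, 0.06 for Ndufa2 and 0.08 for Ndufa9, and with quality weights 0.04 for Ndufs1 and 0.05 for Ndufa9. The 6 mice of the less common name form gave -0.13 for Ndufv1, 0.01 for Ndufaf1 and 0.05 for Ndufaf4, and the 15 others 0.04 for Ndufa4l2. Without PBS mice 103 and 90, Ndufs1 was at 0.01 and Ndufa9 at 0.00. Leaving out 1 mouse turned Ndufv1 (range -0.00 to 0.07), Ndufs1 (-0.03 to 0.02) and Ndufa4l2 (-0.11 to 0.01). The cause of these turns was not tested. The length slope comes from the same counts and differed between the groups, so that fit could also remove a treatment difference.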
